A study of Mus musculus with 16 samples.

Results

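The genes described here carry the names of the cell cycle and DNA replication machinery: minichromosome maintenance (MCM) and GINS proteins, DNA polymerases, ribonucleotide reductase, cyclins, cyclin-dependent kinases (CDKs) and their inhibitors, E2F factors, CDC proteins, mitotic kinases, centromere proteins and kinesins. They were taken by symbol from 4 deposited tables of mouse colon RNA-seq, in which 44 of 5171 distinct genes matched. Their symbols cover more than the cell cycle. Of the 44 genes, 19 were assigned a role in the cycle itself. The other 25 were not assigned one and are called genes without a cell cycle role below. Among them are 14 genes of a transport and ciliary kinesin group and 5 genes of the CDC42 GTPase. Both classes are given separately throughout.

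RNA came from whole tissue of the central part of the colon, per the methods of the study, of mice on a C57BL/6 background. Wild type animals (WT) were set against animals in which Cre under the villin promoter (Vil-Cre) deletes Smarcad1, which codes for a chromatin remodelling ATPase, in intestinal epithelium (KO). All had received an enriched microbiota with bedding from another facility, and the colitis groups drank 1% DSS, a dextran sulphate salt that injures the colon lining, for 15 days. Control groups held 3 libraries per genotype and colitis groups held 5. The age of the mice, and whether WT mice carried floxed alleles, are not given in the labels. The design text names small intestine and the sample labels name colon. The colonocyte genes Car1, Slc26a3 and Aqp8 stood at group means of 9.36 to 11.74 log2 RPM (reads scaled to the library total). Of 8 small intestine enterocyte genes only Fabp6 was in a table. A gene absent from the tables passed no comparison and may still be expressed, so this count does not tell the tissue.

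Smarcad1 itself stood at 5.77 log2 RPM in WT control and 5.68 in WT colitis, against 4.59 in KO control and 4.55 in KO colitis. It is in both tables that compare KO with WT. Whole tissue also holds non-epithelial cells, which Cre spares, and the deletion removes only part of the exons. The source of the Smarcad1 reads left in KO was not tested. Geometric mean library sizes, recovered from the steps of the lowest means, ran from 8005000 reads in WT colitis to 10115000 in WT control. At that depth 3 reads per library correspond to between -1.75 and -1.42 log2 RPM, and all 44 genes lay above this floor in all 4 groups. The lowest was Kif27 with a mean of 7.45 reads in WT colitis.

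The values are the authors' group means of log2 RPM, without the values of single libraries. No spread between mice, standard error or test is therefore given here. "Rose" and "fell" are used only of genes in the authors' table for that comparison, which holds genes that passed DESeq2 at an adjusted p of 0.05. A difference is colitis minus control, or KO minus WT, on the log2 scale. RPM is not corrected for gene length, so levels are compared between groups and not between genes. In whole tissue, fewer cells of a type and less RNA per cell cannot be told apart.

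Cells enter the cycle when D and E type cyclins with their kinases release E2F factors, which drive the genes of DNA synthesis. The MCM helicase is loaded on origins in G1 and set in motion by CDC45 and GINS, and ribonucleotide reductase supplies deoxynucleotides. Mitotic kinases, centromere proteins and mitotic kinesins then separate the chromosomes. In the colon this takes place mainly in the crypts, where cells divide before they differentiate and move to the surface.

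Promoters of the DNA synthesis genes are shown because E2F motifs and CCAAT boxes, bound by NF-Y, are the elements best known for driving them. RefSeq windows on GRCm38.p6, from 250 bases before to 50 bases after the start, were matched for 35 of the 44 genes and for 14 of the 19 with a cell cycle role. Some genes have several starts, and a gene counts when any of its windows holds the motif. In the following 4 stretches, written 5′ to 3′ along the gene from base -100 to base -1, capitals mark CCAAT or its complement ATTGG. They lie at chr1:20820313-20820412 (minus strand), chr2:5012792-5012891 (minus), chr12:24708154-24708253 (plus) and chr19:4231793-4231892 (plus).
Mcm3: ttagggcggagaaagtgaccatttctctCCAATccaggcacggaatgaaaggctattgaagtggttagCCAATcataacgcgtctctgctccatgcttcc
Mcm10: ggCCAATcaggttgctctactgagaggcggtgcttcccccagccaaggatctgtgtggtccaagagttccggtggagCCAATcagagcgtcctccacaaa
Rrm2: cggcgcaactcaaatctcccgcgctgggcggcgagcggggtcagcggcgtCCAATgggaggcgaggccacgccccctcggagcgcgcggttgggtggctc
Pold4: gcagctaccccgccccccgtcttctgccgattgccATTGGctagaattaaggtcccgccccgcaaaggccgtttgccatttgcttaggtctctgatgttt

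CCAAT, searched on both strands, was present in the windows of 8 of the 14 genes with a cell cycle role (57.1%). Over all 27025 genes with a window the share was 41.1%. Of the 5 replication genes with a window it was in 4, those printed. Mcm3 and Mcm10 hold it at 2 positions of the stretch. The G2 and M phase element known as CHR, searched as TTTGAA and TTCGAA, was in 4 of the 14 genes (28.6%), against 21.7% of all. It was in 0 of the 5 replication genes.

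E2F motifs were searched as TTTCGCGC, TTTCCCGC, TTTGGCGC and TTTGCCGC on both strands. They were in the windows of 4 of the 14 genes (28.6%) and of 2.6% of all genes with a window. Counted only before the start, they were in 2 of the 14. In the stretches below, capitals mark the E2F motif. Mcm3 (bases 18 to 47 after the start, chr1:20820266-20820295, minus) holds 1 on each strand, E2f2 (bases 21 to 50, chr4:136172294-136172323, plus) holds 1, and E2f3 (chr13:29986064-29986123, minus) and Pole4 (chr6:82652875-82652934, minus), both from base -60 to base -1, hold it in the reverse orientation.
Mcm3: tgGCGGGAAAacttgggaagtTTTGGCGCc
E2f2: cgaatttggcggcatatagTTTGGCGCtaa
E2f3: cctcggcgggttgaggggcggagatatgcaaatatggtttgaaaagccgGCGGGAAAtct
Pole4: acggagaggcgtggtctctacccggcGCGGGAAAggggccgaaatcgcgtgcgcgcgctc
Of these 4 genes, Mcm3 and E2f2 rose in WT, Pole4 rose in KO, and E2f3 fell in both genotypes, so genes that share these letters did not all move in the same direction. The motif matches are descriptions of the letters in these windows. The RefSeq start and the start of the deposited gene are the same base for Mcm3, Mcm10 and E2f3, the deposited start of E2f2 lies 120 bases downstream, and the deposited Pole4 gene reaches 52491 bases further upstream.

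The first comparison asked how the genes differed between control and inflamed colon in WT and in KO mice. Of the 7 DNA replication genes in the tables, 6 rose in WT (36.6% of all genes) and 4 rose in KO (44.8% of all), and none fell in either genotype. Of the 12 cell cycle regulators, 5 rose and 4 fell in WT, and 3 rose and 3 fell in KO. In both genotypes Ccnd1 rose and Cdk6 and E2f3 fell. In WT only, Ccne1, E2f1, E2f2 and Cdkn2d rose and Cdkn1a and Cdkn2b fell. In KO only, Cdkn1c and E2f4 rose and Cdc14a fell. Of the 25 genes without a cell cycle role, 10 fell and 3 rose in WT, and 17 fell and 4 rose in KO (over all genes, 26.4% fell in WT and 33.6% in KO). Kif27, Kif5a and Plk3 had the widest falls among them.

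In WT, 28 of the 44 genes were in the colitis table (63.6%), against 63.1% of all genes in the tables. There 14 rose and 14 fell, while 36.6% of all genes rose and 26.4% fell. In KO, 31 of the 44 were in the table (70.5%), against 78.4% of all genes. In that genotype 11 rose (44.8% of all) and 20 fell (33.6% of all). Every gene had to pass at least 1 of the 4 comparisons to be present at all, so these shares describe the tables and are no evidence about the machinery as a whole.

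The median difference was -0.19 over the 44 genes in WT and -0.33 in KO, against 0.13 and 0.19 over all genes in the tables. The medians of the 2 classes had opposite signs. Over the 19 genes with a cell cycle role the median was 0.38 in WT and 0.18 in KO. Of these 19, 11 rose and 4 fell in WT, and 7 rose and 3 fell in KO. Over the other 25 the median was -0.40 in WT and -0.43 in KO. A difference of at least 0.5 was reached upward by 6 of the 44 genes in WT (30.6% of all genes) and by 4 in KO (27.9% of all). Downward it was reached by 12 in WT (29.9% of all) and by 12 in KO (30.6% of all).

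**Figure D1:**
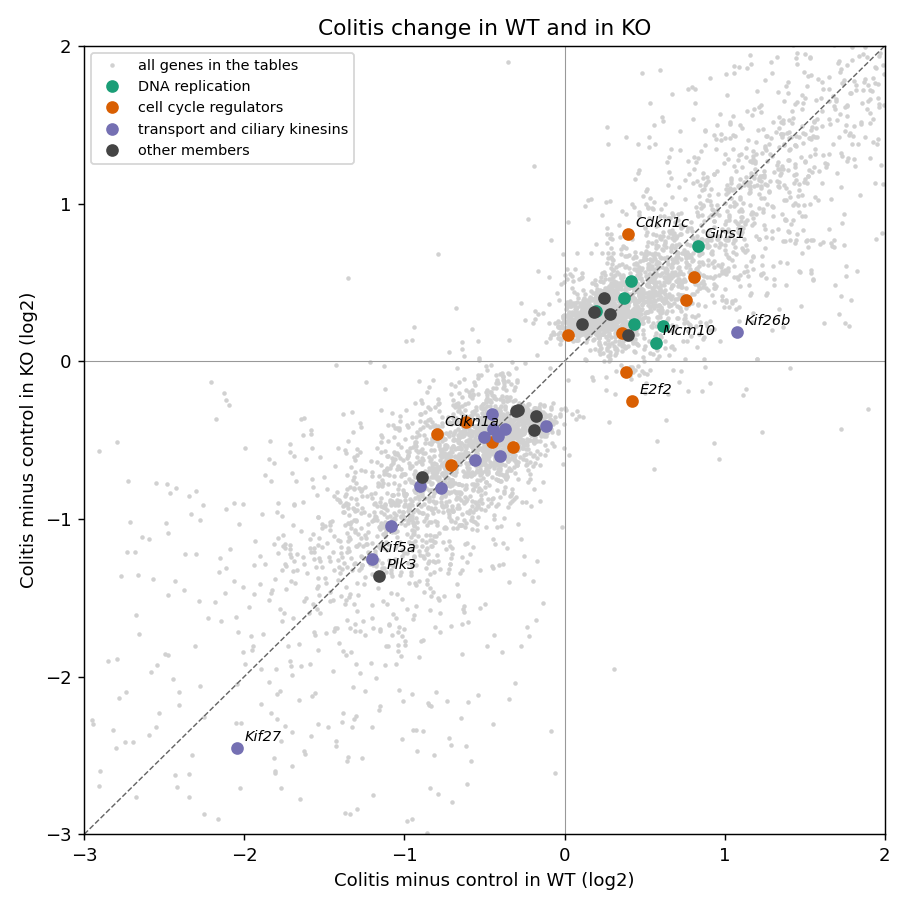
Each point is a gene, with colitis minus control in WT on the x axis and in KO on the y axis, both as differences of the authors' log2 RPM means. Grey points are all genes in the tables, of which 454 lie outside the plotted range of -3 to 2, and the dashed line marks equal differences. The replication genes (green) lie above 0 on both axes, and the kinesin group (purple) lies below 0 on both axes except Kif26b.

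Among the replication genes, the MCM and GINS group was represented by 4 of 20 annotated genes. Mcm4, a helicase subunit on chromosome 16, had means of 5.69 in WT control and 6.11 in WT colitis, and of 5.64 and 6.15 in KO. It rose in both genotypes, by 0.41 in WT and 0.51 in KO. Mcm3, another subunit of the same helicase, had means of 5.90 in WT control, 6.33 in WT colitis, 6.02 in KO control and 6.25 in KO colitis. It rose by 0.43 in WT and was not in the KO table, where its difference was 0.24. The 2 helicase subunits thus stood at similar WT differences, and only Mcm4 was in both tables.

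Mcm10, which helps to open the origin, had means of 4.70 in WT control, 5.27 in WT colitis, 5.00 in KO control and 5.12 in KO colitis. The gene spans chr2:4989714-5012791 on the minus strand. It rose by 0.57 in WT, and its KO difference of 0.12 was not in the table. Its KO control mean lay 0.31 above that of WT control, while its KO colitis mean lay 0.15 below that of WT colitis (difference -0.15). Gins1, a subunit of the GINS complex, was the replication gene with the widest difference in both genotypes. It had means of 2.76 and 3.59 in WT and of 2.94 and 3.67 in KO, and rose 1.78-fold in WT and 1.66-fold in KO.

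The group of polymerases, sliding clamp and nucleotide supply was represented by 3 of 14 annotated genes. Rrm2, the cell cycle regulated subunit of ribonucleotide reductase, had means of 5.12 in WT control, 5.73 in WT colitis, 5.34 in KO control and 5.56 in KO colitis. It rose 1.53-fold in WT, while the KO ratio of 1.17 was not in the table. Pold4, the small subunit of DNA polymerase delta, rose in both genotypes, by 0.37 and 0.40, from 5.07 in WT control and 5.13 in KO control. Of its exon bases 24.6% are shared with another annotated gene on the same strand. Pole4, an accessory subunit of DNA polymerase epsilon, rose in KO from 5.67 to 5.99, and its WT means were 5.87 and 6.07. Pcna, Top2a, Rrm1, Mcm2, Mcm5, Mcm6, Mcm7, Cdc6 and Cdc45 are in none of the tables and were not analysed here.

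**Figure D2:**
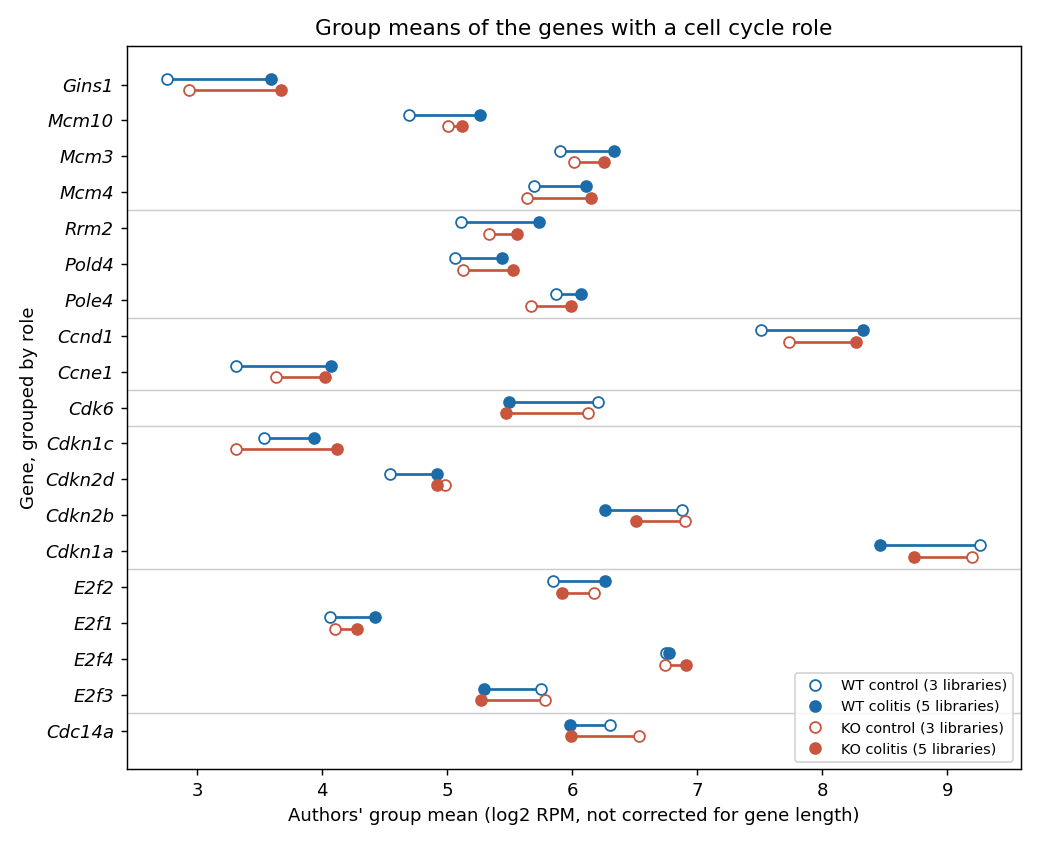
The authors' group means (x axis, log2 RPM) are plotted for the 19 genes with a cell cycle role, grouped by role from top to bottom, with open points for control, filled points for colitis, blue for WT and red for KO. No error bars are drawn because single libraries were not used. The lines of Mcm10, Rrm2 and Ccne1 are longer in WT, and those of E2f2 and Cdkn2d run in opposite directions in the 2 genotypes.

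Of the cyclins, 2 of 10 annotated genes are in the tables and both rose in WT. Ccnd1, the D type cyclin that couples growth signals to cycle entry, had means of 7.51 and 8.32 in WT and of 7.73 and 8.27 in KO. It rose in both genotypes, 1.75-fold in WT and 1.45-fold in KO, and 23.4% of its exon bases overlap a gene on the opposite strand. Ccne1, the partner of Cdk2 at the entry to S phase, rose by 0.76 in WT from a mean of 3.31 to 4.07. Its KO means were 3.64 and 4.02, and the difference of 0.39 was not in the KO table. In the colitis groups the Ccne1 means lay close together, 4.07 in WT and 4.02 in KO. The kinase Cdk6, a partner of the D type cyclins, fell in both genotypes, from 6.20 to 5.50 in WT and from 6.13 to 5.47 in KO. It is the only one of 5 annotated cell cycle CDKs in the tables.

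The CDK inhibitors moved in different directions, and 4 of 8 annotated genes are in the tables. Cdkn1a (chr17:29090979-29100722), an inhibitor induced by p53 and also abundant in differentiated epithelium, fell in WT from 9.26 to 8.46. Its KO means were 9.19 and 8.73, a difference of -0.46 that is not in the table. Cdkn2b, an inhibitor of Cdk4 and Cdk6, fell in WT from 6.88 to 6.26, and had KO means of 6.90 and 6.51. For both genes the KO colitis mean lay above the WT colitis mean, by 0.27 for Cdkn1a and 0.25 for Cdkn2b, and neither is in the table of KO against WT.

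Cdkn2d, another inhibitor of Cdk4 and Cdk6, rose in WT from 4.54 to 4.92, while its KO means were 4.99 and 4.92. The 2 colitis means were equal to within 0.01, and the WT control mean was the low one of the 4. Cdkn1c, an imprinted inhibitor, rose in KO from 3.32 to 4.12, and its WT means were 3.54 and 3.94. Of its exon bases 30.7% overlap a gene on the opposite strand, and whether counting used strand is not given in the sources used here.

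Of the E2F factors, 4 of 8 annotated genes are in the tables. The activators E2f1 and E2f2 rose in WT: E2f1 from 4.07 to 4.43, and E2f2 from 5.84 to 6.27. In KO, E2f1 had means of 4.10 and 4.28, and E2f2 had means of 6.17 and 5.92. The gene spans chr4:136172394-136196057 on the plus strand. E2f2 thus had the lowest mean in WT control and the highest in WT colitis, with both KO means between them. E2f3, also counted among the activators, fell in both genotypes, from 5.75 to 5.29 in WT and from 5.78 to 5.27 in KO. E2f4, a factor of resting cells that works with pocket proteins, rose in KO by 0.17 and had a WT difference of 0.02. Cdc14a, a phosphatase, fell in KO from 6.54 to 5.99 and was the only one of 11 annotated genes of the CDC25, anaphase promoting complex and CDC14 group in the tables.

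The mitotic genes among the matching names were absent from the tables. This held for 23 annotated centromere and spindle checkpoint genes, 6 mitotic kinases with survivin, 12 mitotic kinesins and Mki67, the proliferation marker. Among the fixed names these include Plk1, Aurka, Aurkb, Birc5, Bub1, Cenpa, Cenpe, Kif11 and Kif20a. Ccna2, Ccnb1, Ccnb2 and Cdk1 are also absent. Absence from the tables means that the gene was not analysed here, since its means are not among the values used and a small or variable difference cannot be told from none. In all, 44 of 196 annotated protein coding genes that match the names are in a table (22.4%), against 21.2% of 21924 protein coding genes.

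**Figure D3:**
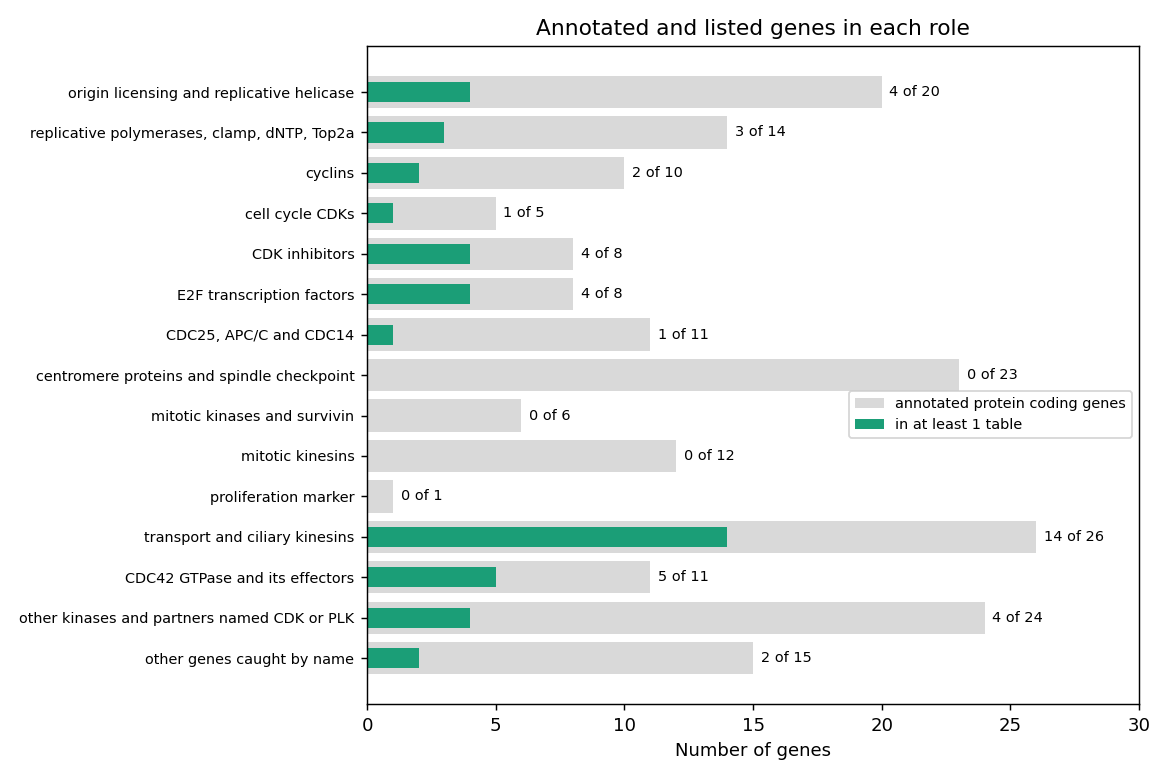
Grey bars count the annotated mouse protein coding genes whose symbols match each role, and green bars count those in at least 1 of the 4 tables (x axis, number of genes). CDK inhibitors and E2F factors stand at 4 of 8 each, transport and ciliary kinesins at 14 of 26, and the 4 mitotic and proliferation rows at 0.

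Genes of the same processes with other names were counted from lists of pathway genes. Of 35 other replication and S phase genes, 8 are in the tables (22.9%, against 21.2% of all protein coding genes). Of these, 6 rose in WT (36.6% of all genes) and 2 rose in KO (44.8% of all). None fell in either genotype (26.4% of all fell in WT and 33.6% in KO). The medians were 0.37 in WT and 0.20 in KO. Prim2, the large subunit of DNA primase, rose in WT from 4.13 to 4.63 and had KO means of 4.53 and 4.33. Fen1, the nuclease that trims Okazaki fragments, rose in WT from 5.36 to 5.94 and had KO means of 5.53 and 5.81. The licensing factor Cdt1 rose in KO by 0.32 and had a WT difference of 0.26. Of 40 other mitosis genes only Cks1b and Ube2s are in the tables. Both rose in WT, by 0.70 and 0.26, and their KO differences were 0.35 and -0.10. Of 21 genes of cell cycle transcription control, 5 are in the tables. Mybl2, which drives late cell cycle genes, rose in WT by 0.67 and had a KO difference of 0.23. Gadd45a, induced by stress and growth arrest, fell in WT by 0.60, and its KO difference of -0.59 was not in the table.

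The second comparison asked which genes differed between KO and WT mice. None of the 44 genes is in the table of KO against WT in control, which holds 0.89% of all genes, or in that of colitis, which holds 1.08%. These counts of 0 rest on the authors' DESeq2 test at an adjusted p of 0.05, and unadjusted p-values were not used here. By size alone, a difference of at least 0.5 between genotypes was reached in control by Kif27, higher in KO (0.93; 4.04% of all genes reached it upward), and downward by none of the 44 (3.46% of all). In colitis it was reached by Kif27, higher in KO (0.52; 5.43% of all), and by Kif26b, lower in KO (-0.93; 10.3% of all).

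The genotype difference of the replication genes is given for both conditions because WT and KO often had different places in the colitis tables. Over the 7 replication genes the median of KO minus WT was 0.12 in control and -0.08 in colitis. KO was higher for 5 of 7 in control and for 3 of 7 in colitis. Over all 5171 genes the medians were 0.0046 and -0.014, and KO was higher for 2635 in control and for 2449 in colitis. The values were 0.31 and -0.15 for Mcm10, 0.22 and -0.17 for Rrm2, 0.12 and -0.08 for Mcm3, 0.17 and 0.08 for Gins1, 0.06 and 0.09 for Pold4, -0.05 and 0.05 for Mcm4, and -0.20 and -0.08 for Pole4. The 8 other replication genes had medians of 0.18 in control and -0.13 in colitis, with KO higher for 8 of 8 in control and for 3 of 8 in colitis. Of these 8, 6 are in the WT colitis table only, as are 3 of the 7 (20.9% of all genes). The regulators with the widest values were Cdkn2d (0.44 in control), E2f2 (0.33 in control and -0.35 in colitis) and Ccne1 (0.33 and -0.05).

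**Figure D4:**
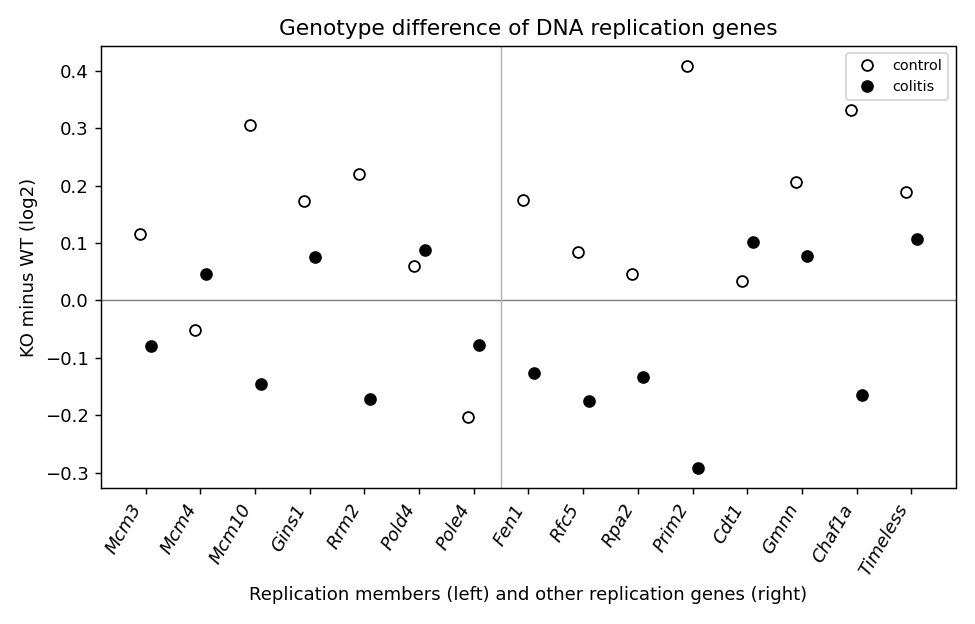
KO minus WT (y axis, difference of the authors' log2 RPM means) is plotted for the 7 replication genes on the left and the 8 other replication genes on the right, with open points for control and filled points for colitis. The open points lie above 0 except for Mcm4 and Pole4, and 6 of the 15 filled points lie above 0.

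These genotype values and the colitis differences use the same 4 means. A gene listed in WT only passed the authors' test in WT and not in KO. For a gene that rose, a low WT control mean or a high WT colitis mean favours this. The signs of the genotype values above are therefore no independent evidence. Of the 44 genes, 13 are in the WT colitis table only (20.9% of all genes), 16 in the KO table only (36.2% of all) and 15 in both (42.2% of all). Of the 19 with a cell cycle role, 9 are in WT only, 4 in KO only and 6 in both. Whether the colitis response differed between genotypes was not tested, since single libraries were not used. Of the 6 in both tables, Mcm4, Gins1, Pold4 and Ccnd1 rose and Cdk6 and E2f3 fell. All 2182 genes in both tables had the same direction in both genotypes, so this is not particular to these 6.

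Among the genes without a cell cycle role, the transport and ciliary kinesin group was the most numerous. It holds mainly motors that carry vesicles, mitochondria or ciliary parts along microtubules. It also holds Kif1bp, a kinesin binding protein that is not itself a motor. Of 26 annotated genes of this group 14 are in the tables, against 21.2% of all protein coding genes. In WT 8 fell (26.4% of all genes) and 1 rose (36.6% of all). In KO 12 fell (33.6% of all) and none rose (44.8% of all). The medians were -0.48 in WT and -0.54 in KO. Kif27, a motile cilia gene on chromosome 13, had means of 1.94 in WT control and -0.10 in WT colitis, and of 2.87 and 0.41 in KO. It fell in both genotypes and stood 4.12-fold lower in WT colitis and 5.49-fold lower in KO colitis. The gene spans chr13:58287502-58359122. Its mean in WT colitis, 7.45 reads, was the lowest among the 44. The counting error of that mean is therefore relatively large, and the spread between mice is not known here.

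Kif5a, a heavy chain of neuronal kinesin, fell from 5.04 to 3.84 in WT and from 4.88 to 3.63 in KO. Kif1a, the motor of synaptic vesicle precursors, fell from 5.25 to 4.17 in WT and from 5.02 to 3.98 in KO. Kif5c, another neuronal heavy chain, fell from 4.53 to 3.62 in WT and from 4.32 to 3.52 in KO. For these 3 motors the fall was 0.79 to 1.26 on the log2 scale and the colitis mean was below the control mean of either genotype. Kif26b was the only kinesin that rose, in WT, from 1.57 to 2.65, and its KO means were 1.54 and 1.73. Its KO colitis mean stayed near both control means.

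Genes of enteric neurons are given beside these kinesins. The list was chosen after values were seen, so its direction is no independent evidence. Of 16 such genes 14 are in the tables, against 21.2% of all protein coding genes. Of these, 13 fell in WT (26.4% of all genes) and 11 fell in KO (33.6% of all). The differences ran from -1.34 to -0.23 in WT. Nos1, which makes nitric oxide in inhibitory neurons, fell from 5.78 to 4.73 in WT and from 5.57 to 4.09 in KO. Elavl4, an RNA binding protein of neurons, fell from 3.79 to 2.83 in WT and from 3.58 to 2.25 in KO. The part of neuronal content in the kinesin values was not tested.

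**Figure D5:**
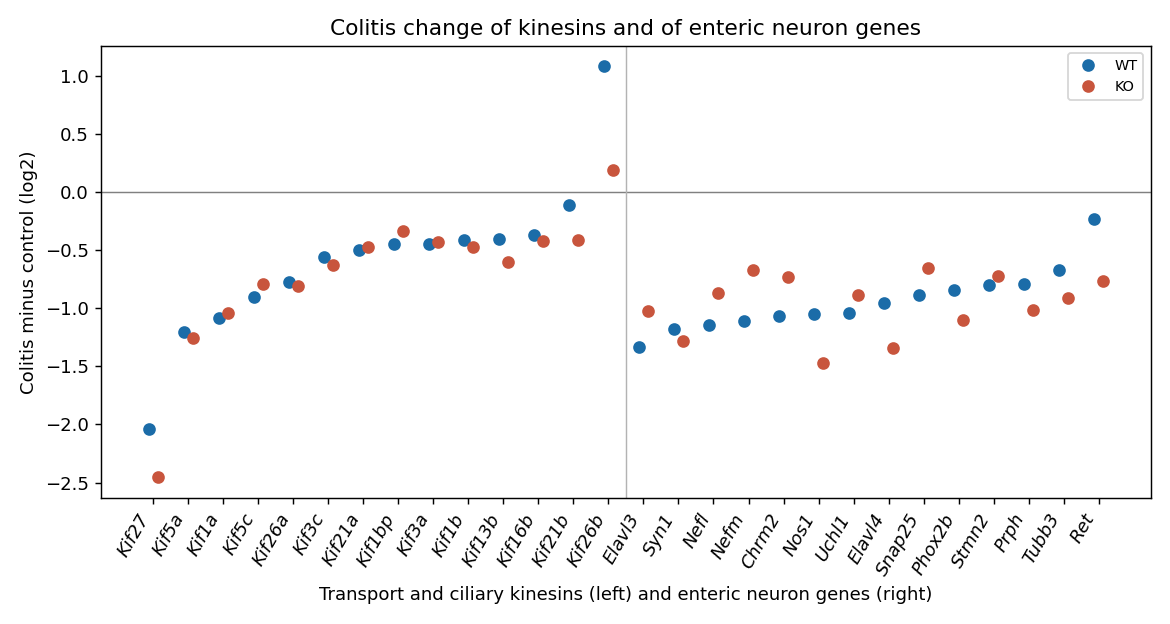
Colitis minus control (y axis, difference of the authors' log2 RPM means) is plotted in WT (blue) and KO (red). The 14 genes of the transport and ciliary kinesin group are on the left. The 14 enteric neuron genes in the tables are on the right, and each side is sorted by the WT value. Kif27 lies lowest at -2.04 and -2.46, Kif26b lies above 0, and the neuron genes lie below 0 in both genotypes.

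The other genes taken in by name were mixed. Plk3, a stress response kinase of the Polo family that is not a driver of mitosis, fell from 6.08 to 4.93 in WT and from 6.24 to 4.87 in KO, 2.23-fold and 2.58-fold lower. Cdk5r2, an activator of the neuronal kinase Cdk5, fell in WT from 2.47 to 1.58, and had KO means of 2.22 and 1.49. Cdk8, a kinase of the Mediator complex, fell in KO by 0.31 and had a WT difference of -0.29. Cdk2ap2, named as a partner of Cdk2, rose in KO by 0.40 and had a WT difference of 0.24. The GTPase Cdc42, which controls cell polarity, rose in both genotypes, by 0.29 in WT and 0.30 in KO, at means of 9.45 to 9.75. Cdc42se1 rose in WT by 0.40, while Cdc42ep1 rose in KO by 0.23. The kinases Cdc42bpg and Cdc42bpb fell in KO, by 0.44 and 0.35, with WT differences of -0.19 and -0.18. Cdc37l1 fell in KO by 0.31 and Cdkn2aipnl rose in KO by 0.31.

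Markers of the cells in the tissue also differed between control and colitis. For scale, 21.2% of all protein coding genes are in a table. Of all genes in the tables, 36.6% rose and 26.4% fell in WT, and 44.8% rose and 33.6% fell in KO. Of 12 leukocyte genes 11 are in the tables and all 11 rose in both genotypes, with medians of 1.44 in WT and 1.58 in KO. All 8 neutrophil genes rose in WT and 7 rose in KO, with medians of 3.94 and 2.99, which are the same when means under the floor of 3 reads are raised to it. The remaining gene, Mmp9, had a KO difference of 0.54. S100a9, a neutrophil granule protein, rose from -1.30 to 6.36 in WT and from -2.23 to 3.60 in KO, and its KO control mean lies under that floor. Fibroblast genes (7 of 8 in the tables) had medians of 0.93 and 0.55. Smooth muscle genes (4 of 8) had medians of -0.64 and -0.56. B and plasma cell genes (2 of 8) had medians of 0.19 and 0.61.

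Of 12 epithelial genes 3 are in the tables, the colonocyte genes Car1, Slc26a3 and Aqp8. Their medians were -1.31 in WT and -0.89 in KO, and Car1 is in the KO table only. The general epithelial genes of the list, among them Epcam, Vil1, Cdh1 and Krt8, are in none of the tables. The medians therefore describe these 3 genes and not the epithelium as a whole. Of 6 crypt base stem cell genes, Ascl2 fell in WT from 3.75 to 1.91 and had KO means of 3.37 and 2.75, Axin2 fell in both genotypes, by 1.27 and 0.81, and Smoc2 rose in KO by 0.41. Values from whole tissue do not say which cell type carried a difference. The part of each cell type in the cell cycle values was not tested.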

How the data were processed

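RNA-seq of 16 libraries of whole colon tissue was analysed from 4 deposited tables. Per the labels and the methods of the study, the authors mapped reads to GRCm38 (mm10) with HISAT2 2.1.0, removed reads over ribosomal RNA, counted reads over exons in SeqMonk and ran DESeq2 on raw counts. Each table holds the genes that passed an adjusted p of 0.05 in 1 comparison. The deposited log2 values are the authors' mean of log2 RPM over the libraries of a group, and rows of a gene agreed between tables. An FDR column holds the authors' comparison and was not used.

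Genes were taken by symbol, and differences are differences of group means. Counts cover membership in a table, or a difference of at least 0.5. Members and lists were chosen with earlier results of these data known. Named were, in each role, the 2 members with the widest difference in WT and in KO, a fixed list of textbook cell cycle genes, and from the other lists the 2 widest; further members and marker genes were named after their values were seen. Library sizes were recovered from the steps of the lowest means (36 to 81 per group, all on steps) and floors cover counting error only. Gene counts, coordinates and shared exon bases used the GENCODE annotation of the same build: 40 of the 44 genes had identical coordinates, 15 shared exon bases with another gene, and 2 shared over 25%. Scripts ran in Python 3.11.15 with pandas 2.3.3 and were tested on simulated data. A gene of the replication list is not reported here, and the counts and medians of that list leave it out.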

Additional observations from a re-analysis of the deposited data

How the results depend on the processing

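The direction of the median depended on which genes were included. The median of -0.19 in WT became 0.38 over the 19 genes with a cell cycle role, 0.43 over the 7 replication genes (an alternative added after seeing the data) and -0.56 over genes in both colitis tables. The median of -0.33 in KO became 0.18, 0.32 and -0.63. The 28 genes listed in WT became 17 with a difference of at least 0.5 and 15 with a cell cycle role, and the 31 in KO became 15 and 10. Raising the limit from 0.5 to 1 took the genes past it from 18 to 5 in WT, from 16 to 4 in KO, from 1 to 0 between genotypes in control and from 2 to 0 in colitis. Subtracting the median of all genes took the 16 in KO to 25. The 4 genes with an E2F motif became 2 when only bases before the start were read. The remaining 15 alternatives, among them a minimum mean of 1 and means raised to the floor, left the direction, and the value within 0.2 for medians and 1.5 times for counts. Among them, subtracting the median of all genes moved the median from -0.19 to -0.31 in WT and from -0.33 to -0.52 in KO. No alternative was computed for the 0 genes in the tables of KO against WT.

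No paired analysis was possible because the deposited tables used here give group means without single libraries, and leaving out a library was not done for the same reason. Genes outside the tables, the spread between mice and the difference in response between genotypes were not analysed here.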
